A study of Mus musculus with 2 samples.

Results

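Fcer2a, which encodes CD23, and the B cell Fc receptor genes Fcgr2b, Fcmr, Fcrla, Fcrl1 and Fcrl5 were followed in single B cells of the mouse colon lamina propria before and after an experimental colitis. These 6 genes were named by symbol, with earlier results of these data known. The count tables held 31053 genes, of which 14690 had at least 1 UMI in the cells used. A UMI is a molecular tag that counts 1 captured RNA molecule. All cells came from female C57BL/6J mice and were sorted as B cells by flow cytometry; the labels do not name the sort markers. The day 0 group was the untreated control. The day 14 group had received 2% dextran sulphate sodium (DSS), a polymer that injures the colon lining, in the drinking water for 7 days and then recovered for 7 days. The treatment field of the labels reads DSS for both samples, while the group titles and the design text give day 0 as untreated. Each day was 1 droplet library (Chromium 3′, version 2), and the labels state neither how many mice it pooled nor their age. With 1 library per day there is no replicate check, so a difference between the days cannot be told apart from a difference between these 2 libraries, and every interval below covers counting error only.

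Fc receptors bind the constant part of antibodies and carry the antibody's presence into the cell as a signal. On B cells, CD23 is the low-affinity receptor for IgE, a C-type lectin that also pairs with the complement receptor Cr2 and is shed from the surface by the protease Adam10; it is a classical marker of mature follicular B cells, is induced by interleukin 4 through Stat6, and is lower on marginal zone and B-1 cells. Fcgr2b is the inhibitory receptor for IgG, which dampens the antigen receptor through the phosphatase Inpp5d, and Fcmr is the receptor for IgM. The Fc receptor-like genes Fcrl1 and Fcrl5 encode B cell surface proteins of the same immunoglobulin superfamily, and Fcrla encodes an intracellular relative.

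In the mm10 assembly with GENCODE M21 annotation, Fcer2a lies on the minus strand of chromosome 8 from 3681737 to 3694175. Fcgr2b (170958617 to 170976547) and Fcrla (170917576 to 170927583) lie close together on the minus strand of chromosome 1, and Fcmr lies on its plus strand from 130865669 to 130880791. Fcrl1 (87376387 to 87402934) and Fcrl5 (87435773 to 87500678) are neighbours on the plus strand of chromosome 3. Fcgr2b overlaps the antisense gene Gm38204, which had 1 UMI at day 0 and 0 at day 14, and shares sequence with Fcgr3; how reads were divided between such genes was not checked. Fcrla overlaps the pseudogene Gm2962, whose reads were not counted separately in the tables.

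RefSeq (GRCm38.p6) lists 3 transcription starts for Fcer2a, and the 250 bases before each are printed because Fcer2a is the gene with the lowest day 14 level relative to day 0 among the 6. The windows are chr8:3694175-3694424, chr8:3690862-3691111 and chr8:3690391-3690640, all on the minus strand, with the first upstream of the whole gene and the others inside its annotated span. Capitals mark matches to 5 motifs searched on both strands: the STAT6-type pair TTC and GAA with 4 bases between them, the STAT-type pair TTC and GAA with 3 bases between, the interferon-type pair GAAA and GAAA with 2 bases between, the ETS-type GGAAGT and the TATA box TATAAA.
Fcer2a upstream start: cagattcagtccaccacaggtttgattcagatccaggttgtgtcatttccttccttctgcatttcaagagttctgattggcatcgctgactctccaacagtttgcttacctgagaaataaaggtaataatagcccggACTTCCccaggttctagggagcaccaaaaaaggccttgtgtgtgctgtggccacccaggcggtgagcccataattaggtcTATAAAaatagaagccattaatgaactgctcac
Fcer2a middle start: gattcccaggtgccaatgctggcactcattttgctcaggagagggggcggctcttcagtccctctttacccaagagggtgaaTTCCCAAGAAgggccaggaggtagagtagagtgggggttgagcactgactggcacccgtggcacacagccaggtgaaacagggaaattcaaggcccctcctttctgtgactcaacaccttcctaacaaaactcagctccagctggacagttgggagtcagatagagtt
Fcer2a downstream start: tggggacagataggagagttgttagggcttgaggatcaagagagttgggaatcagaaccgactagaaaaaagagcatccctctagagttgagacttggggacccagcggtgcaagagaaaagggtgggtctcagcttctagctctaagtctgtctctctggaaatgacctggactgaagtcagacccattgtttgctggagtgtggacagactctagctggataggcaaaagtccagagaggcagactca
The upstream window held ACTTCC, the ETS-type letters on the other strand, at bases -113 to -108 and TATAAA at -33 to -28 from its start. The middle window held 1 match to the STAT6-type letters, TTCCCAAGAA at -168 to -159, which 5.85% of all 32851 promoter windows hold. The downstream window held no match to the 5 motifs. Among the other genes, the Fcmr window held none of them, Fcrla held GAAAAAGAAA (share of all windows 2.98%), Fcgr2b held 1 ACTTCC, and Fcrl1 and Fcrl5 each held ACTTCC (share 19.7%) and the TATA letters on either strand (share 12.4%). These are letter matches and not measured binding sites, and counts from the 3′ end of the RNA do not tell which start was used.

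The cells used were 3290 at day 0 and 4692 at day 14, with 8690102 and 12317052 UMIs in all and medians of 2278.5 and 2241.5 UMIs per cell; 17 barcodes occur in both libraries. Each cell was placed in 1 isotype state from its antibody heavy chain UMIs. A cell was called switched with at least 3 IgA, IgG or IgE heavy chain UMIs that also outnumbered its Ighm and Ighd UMIs together. Unswitched cells can thus hold some: IgD-positive cells had 435 Igha UMIs in all at day 0 and 204 at day 14. Igha was detected in 37.3% of all cells at day 0 and 13.9% at day 14. Whether some cells called IgA were unswitched was not tested. IgD-positive cells (at least 2 Ighd UMIs and not called switched) numbered 976 at day 0 (29.7% of the cells) and 1486 at day 14 (31.7%). IgM-only cells (0 Ighd and at least 3 Ighm UMIs) numbered 610 and 780, IgG cells 29 and 25, and IgA cells 75 and 47. Immunoglobulin-rich cells, in which over 20% of all UMIs were immunoglobulin, numbered 24 and 27. The remaining 1576 and 2327 cells were left unresolved. Of these, 974 and 1392 had exactly 1 Ighd UMI, whatever their Ighm UMIs, and 602 and 935 had 0 Ighd and under 3 Ighm UMIs. At this depth a cell with 0 Ighd UMIs is not shown to lack IgD, so the states are ranges of counts and not sorted populations: 536 and 832 cells had exactly 2 Ighd UMIs and 979 and 1397 had exactly 1. All 976 and 1486 IgD-positive cells had 5 or more UMIs from the mature B marker list, but so did 3288 of all 3290 and 4688 of all 4692 cells. That list includes Cd74, found in 3290 and 4690 cells, so passing the limit does not set IgD-positive cells apart. The median depth of IgD-positive cells was alike on the 2 days (2416.5 and 2398.5 UMIs).

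Levels (CPM) are UMIs of a gene per 1000000 summed UMIs of a state, without immunoglobulin and mitochondrial genes, with exact Poisson 95% intervals, and ratios have exact conditional 95% intervals. A gene was counted as higher or lower where the ratio of a comparison was at least 1.5-fold and the gene had at least 50 UMIs over both sides.

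Within IgD-positive cells Fcer2a had the lowest ratio of day 14 to day 0 of the 6 receptors. Fcer2a was at 367 CPM (343 to 391, 920 UMIs) at day 0 and at 200.4 CPM (187 to 215, 795 UMIs) at day 14, a ratio of 0.547 (0.497 to 0.602). The IgM receptor Fcmr was at 679 CPM (647 to 712, 1704 UMIs) and 490 CPM (468 to 512, 1942 UMIs), a ratio of 0.721 (0.675 to 0.770). The intracellular Fcrla was at 337 CPM (315 to 361) and 283 CPM (266 to 299.6), a ratio of 0.838 (0.766 to 0.918). These 3 genes were lower at day 14 beyond counting error, and the interval of the Fcer2a ratio does not overlap that of Fcmr or Fcrla.

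The inhibitory receptor Fcgr2b was at 56.6 CPM (47.7 to 66.7) at day 0 and 64.8 CPM (57.1 to 73.2) at day 14, a ratio of 1.15 (0.929 to 1.42). Fcrl1 was at 169 CPM (154 to 186) and 184 CPM (170.4 to 197), a ratio of 1.08 (0.960 to 1.22) that was 0.912 after thinning to 1000 UMIs per cell. Fcrl5 was close to the limit of detection, with 18 UMIs at day 0 and 46 at day 14, or 7.17 CPM (4.25 to 11.3) and 11.6 CPM (8.49 to 15.5). Its ratio of 1.62 (0.920 to 2.96) passed 1.5-fold but its interval includes 1. For these 3 genes the difference was within counting error at this scaling and state limit. Fcrl1 was at 1.16 (1.03 to 1.31) with TMM scaling and 1.16 (1.02 to 1.31) with median-of-ratios scaling, and Fcrl5 at 2.79 (1.20 to 7.51) where IgD-positive meant at least 3 Ighd UMIs, with intervals above 1.

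Of the 6 genes, 1 (Fcer2a) was at least 1.5-fold lower in IgD-positive cells and 1 (Fcrl5) at least 1.5-fold higher; over the 6855 genes with enough UMIs, 5.40% were lower (370 genes) and 2.04% higher (140 genes). The median log2 ratio of the 6 was -0.07 and that of all genes tested -0.08. With edgeR's TMM scaling the same genes split into 226 lower and 214 higher, since the median of all genes moves by about 0.1 on the log2 scale. Fcer2a was lower with library totals, TMM and median-of-ratios scaling alike. Of the 6855 genes, 77 had a lower ratio than Fcer2a, but none of the 385 genes with at least as many UMIs did. For Fcmr, 5 of the 185 genes with at least as many UMIs had a lower ratio, namely Apoe, Ccr7, Cd83, Rps27rt and Tsc22d3.

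**Figure D1:**
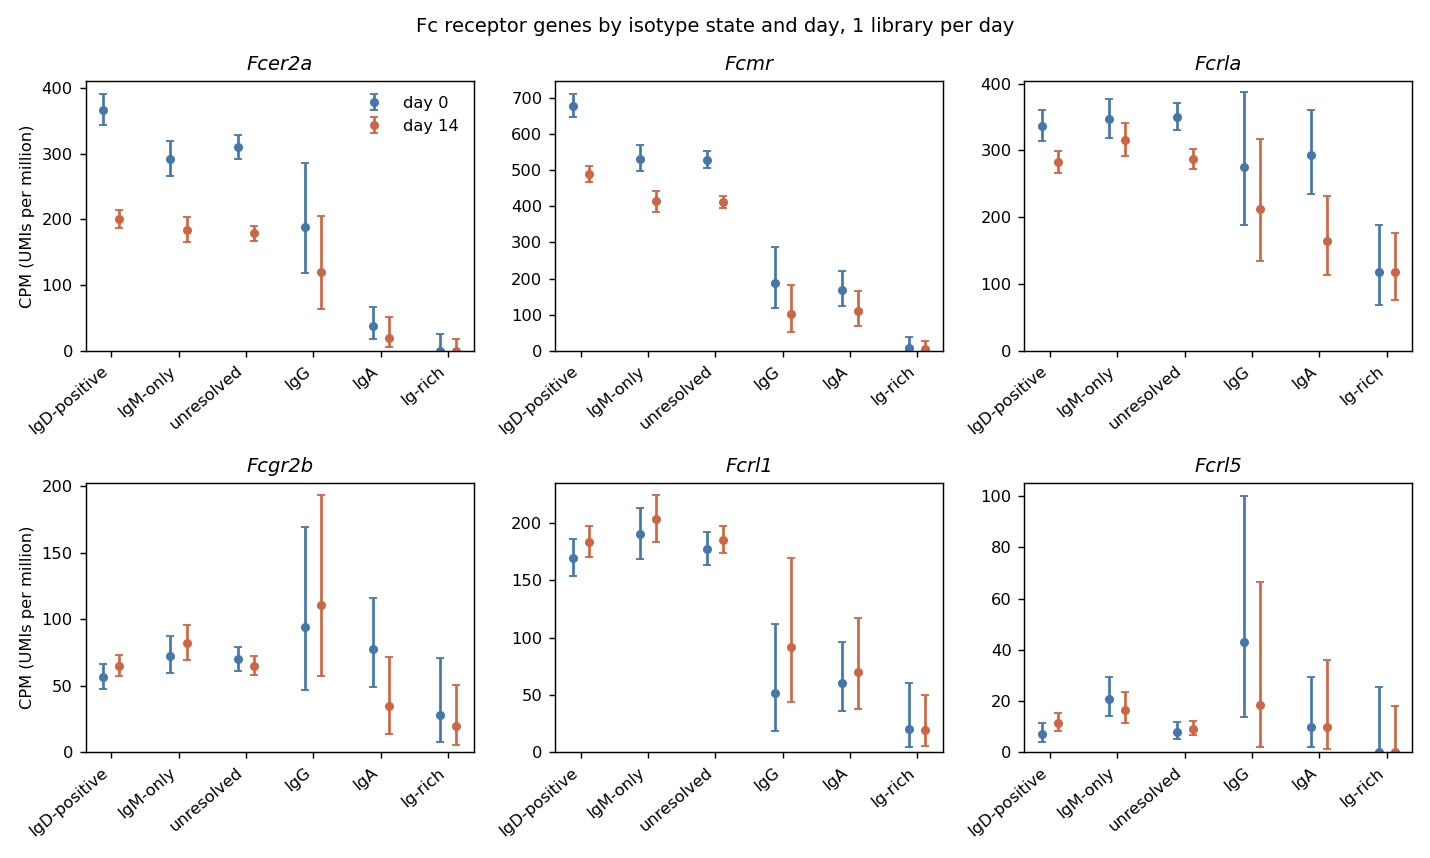
Level of each Fc receptor gene (y axis, CPM from 0, with its own range in each panel) in the 6 isotype states (x axis) at day 0 and day 14, as points with exact Poisson 95% intervals over 1 library per day. Fcer2a at day 14 lies under its day 0 interval in IgD-positive (200.4 against 367 CPM), IgM-only and unresolved cells, while Fcgr2b and Fcrl1 have overlapping intervals there.

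The lower Fcer2a level in IgD-positive cells went with fewer cells in which it was detected. At least 1 Fcer2a UMI was found in 53.4% of these cells at day 0 (exact binomial interval 50.2 to 56.5) and in 34.2% at day 14 (31.8 to 36.7). Thinned to 1000 UMIs per cell, which left out 2 and 3 shallower cells, the shares were 29.0% and 16.6%. Cells with 4 or more Fcer2a UMIs numbered 42 at day 0 (4.30%) and 19 at day 14 (1.28%), so the upper end of the distribution was thinner as well. Among cells with at least 1 Fcer2a UMI the level was 673 CPM at day 0 and 541 CPM at day 14.

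Detection of the other receptors in IgD-positive cells followed their levels. Fcmr was detected in 74.3% and 62.7% of cells (46.0% and 35.4% thinned), and Fcrla in 52.2% and 46.5% (26.3% and 22.5% thinned). Fcrl1 was detected in 33.7% and 37.4%, a difference that is not seen after thinning (15.0% and 14.6%). Fcgr2b was detected in 13.3% and 15.3%, and Fcrl5 in 1.54% and 2.69%. In percentage points of cells the difference was thus widest for Fcer2a, with Fcmr next.

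**Figure D2:**
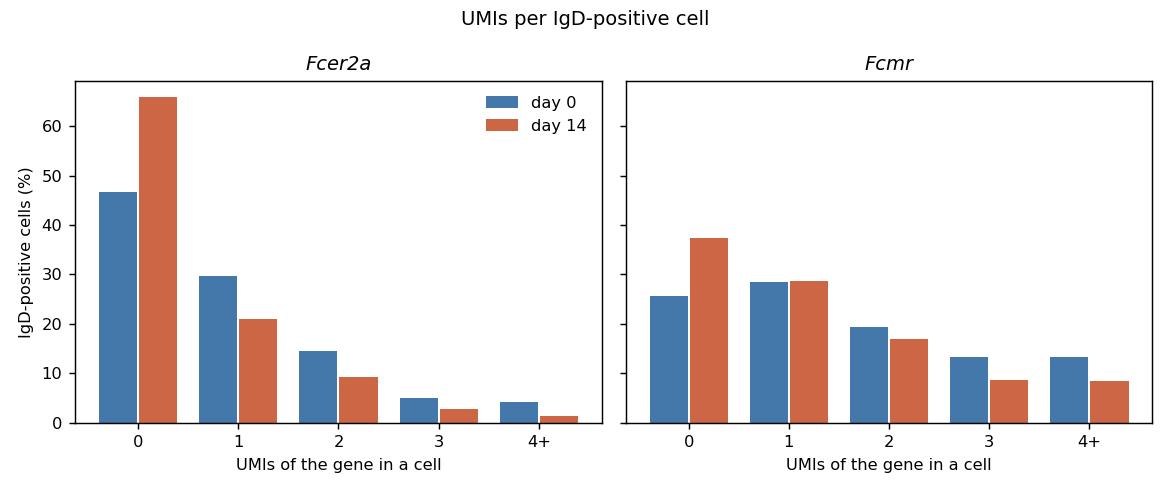
Share of IgD-positive cells (y axis, %) by the number of UMIs of Fcer2a (left) or Fcmr (right) in the cell (x axis), with bars for the 976 cells of day 0 and the 1486 of day 14, not thinned. Cells with no Fcer2a UMI were 46.6% at day 0 and 65.8% at day 14, and each Fcer2a class from 1 UMI upwards was smaller at day 14.

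Fcer2a was also lower at day 14 outside the IgD-positive state. In IgM-only cells Fcer2a was at 292 CPM (265 to 320) at day 0 and 183 CPM (165 to 203) at day 14, a ratio of 0.629 (0.546 to 0.724). In unresolved cells, most of which had 1 Ighd UMI, it was at 309.9 CPM and 178 CPM, a ratio of 0.576 (0.527 to 0.630). The 3 intervals overlap, and the difference between the states was not tested. At least 1.5-fold lower were 6.35% of 5389 genes in IgM-only cells and 4.38% of 7378 genes in unresolved cells, and of the 6 receptors only Fcer2a in each; 2.17% and 2.03% of genes were at least 1.5-fold higher, and none of the 6. With TMM or median-of-ratios scaling Fcer2a in IgM-only cells lay within 1.5-fold.

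Fcmr followed Fcer2a in direction with a smaller difference, at a ratio of 0.777 in IgM-only and in unresolved cells. Fcrla had ratios of 0.910 and 0.821 in these 2 states. In IgM-only cells Fcrl5, at 32 and 33 UMIs, had a ratio of 0.804, the opposite side of 1 from IgD-positive cells, and both intervals include 1. Neither Fcgr2b nor Fcrl1 passed 1.5-fold in any of the 3 states.

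**Figure D3:**
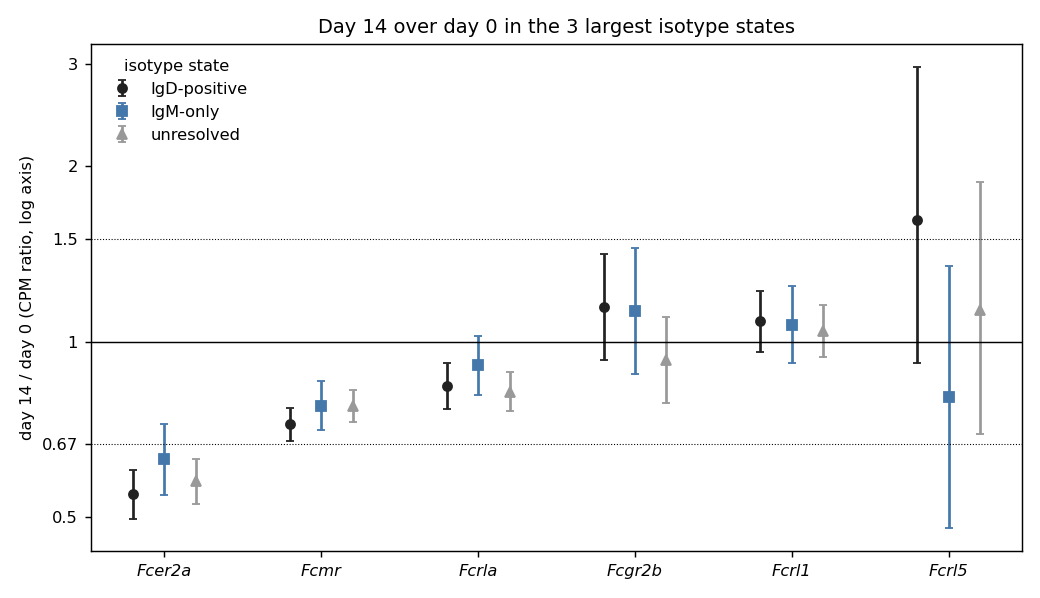
Ratio of day 14 to day 0 (y axis, log scale) for each of the 6 genes (x axis) in IgD-positive, IgM-only and unresolved cells, with exact conditional 95% intervals; dotted lines mark 1.5-fold. The 3 Fcer2a points lie between 0.547 and 0.629, under all points of Fcmr and Fcrla.

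Within a day, the receptors separated by state. Against IgD-positive cells of the same day, Fcer2a in IgA cells was at 0.101 (0.050 to 0.182) at day 0 and 0.100 (0.027 to 0.256) at day 14, from 11 and 4 UMIs. An Fcer2a UMI was found in 9.33% of IgA cells at day 0 (median 3186 UMIs) and 8.51% at day 14 (median 3300 UMIs), against 2 of 56 (3.57%, interval 0.435 to 12.3) and 3 of 45 (6.67%, 1.40 to 18.3) T cell marker barcodes that the depositors' filter had left out (medians 3352.5 and 3006 UMIs). The intervals overlap, so Fcer2a in IgA cells is not told apart from background. Immunoglobulin-rich cells, the plasma cell range, had no Fcer2a UMI on either day; with a floor of 3 counts over the group Fcer2a was at least 17.6-fold lower than in IgD-positive cells at day 0 and at least 13.6-fold lower at day 14. In single cells, 0 of 24 and 0 of 27 have exact binomial upper limits of 14.2% and 12.8% for the share with a UMI.

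IgG cells were few and their Fcer2a rested on 1 cell. At day 0 they had 22 Fcer2a UMIs in 29 cells (189 CPM), 13 of them in 1 cell with 11189 UMIs, and Fcer2a was at 0.516 (0.321 to 0.785) of IgD-positive cells. Without that cell, left out after its value was seen, the ratio was 0.233 (0.106 to 0.444). At day 14 the ratio was 0.597 (0.317 to 1.03) from 13 UMIs. Across days the IgG ratio was 0.634 (0.293 to 1.32), and without that cell 1.40 (0.555 to 3.72), so the direction in IgG cells is not determined. Of genes with enough UMIs in IgG cells, 11.6% were lower and 6.71% higher at day 14, and Fcrla, the one receptor with enough, was within 1.5-fold. In IgA cells 9.41% of genes were lower and 8.12% higher; Fcrla at 0.562 (0.365 to 0.849) and Fcmr at 0.652 (0.376 to 1.10) were at least 1.5-fold lower, the second with an interval that includes 1.

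Fcmr was also low in switched cells, but detected in more of them than in T cell marker barcodes at day 0. In IgA cells Fcmr was at 0.248 (0.183 to 0.328) of IgD-positive cells at day 0 and 0.224 (0.140 to 0.341) at day 14, and in IgG cells at 0.278 and 0.207. It had 1 UMI on each day in all immunoglobulin-rich cells together. Fcmr was detected in 46.7% of IgA cells at day 0, against 1 of 56 T cell marker barcodes. Fcrl1 was at 0.358 and 0.381 of IgD-positive cells in IgA cells and at 0.304 and 0.502 in IgG cells. In immunoglobulin-rich cells Fcrl1 was at 0.123 and 0.107, from 3 and 4 UMIs.

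The other receptors differed less from IgD-positive cells or varied between the days. Fcrla was at 0.869 in IgA cells at day 0 and 0.583 (0.399 to 0.823) at day 14, at 0.816 and 0.750 in IgG cells, and still at 0.350 and 0.418 in immunoglobulin-rich cells, where it was the member with most UMIs (17 and 24). Fcgr2b was at 1.67 (0.815 to 3.08) and 1.71 (0.870 to 3.03) in IgG cells, from 11 and 12 UMIs, and at 1.37 and 0.539 in IgA cells, all with intervals that include 1. In immunoglobulin-rich cells Fcgr2b was at 0.490 (0.132 to 1.28) at day 0 and 0.304 (0.0822 to 0.788) at day 14, from 4 UMIs on each day. Fcrl5 in IgG cells at day 0 was at 5.99 (1.74 to 16.7) of IgD-positive cells, from 5 UMIs. Over the 6 receptors, the IgM-only, IgG and IgA states and both days, 12 pairs were at least 1.5-fold lower than in IgD-positive cells with enough UMIs and an interval under 1, all in IgG or IgA cells. At day 0 and day 14, the shares of all genes at least 1.5-fold lower were 2.33% and 2.65% for IgM-only, 18.6% and 19.0% for IgG, and 15.6% and 20.6% for IgA cells. These shares were counted without the interval condition, so they and the 12 pairs are not on the same measure. In IgG cells 22.3% and 25.0% of genes were at least 1.5-fold higher, so the Fcgr2b value there is among many. IgG and IgA cells were deeper than IgD-positive cells (medians of 3236 and 3186 UMIs at day 0), and the part of depth in these ratios was not tested.

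Against IgD-positive cells, IgM-only cells had less Fcer2a at day 0, at 0.796 (0.709 to 0.892), and 0.915 (0.806 to 1.04) at day 14. Fcmr was at 0.785 and 0.845. Fcgr2b was at 1.28 (0.992 to 1.66) and 1.26 (1.03 to 1.54). Fcrl5 was at 2.89 (1.58 to 5.47) at day 0 and 1.44 (0.890 to 2.30) at day 14. Of all genes in this comparison, 3.05% were at least 1.5-fold higher at day 0 and 2.08% at day 14. Fcrla was at 1.03 (0.921 to 1.15) and 1.12 (1.01 to 1.23), and Fcrl1 at 1.12 (0.963 to 1.30) and 1.11 (0.977 to 1.25). So in IgM-only cells Fcer2a and Fcmr lay under 1 on both days and the other receptors above 1. The interval includes 1 for Fcer2a and Fcrl5 at day 14, Fcgr2b and Fcrla at day 0, and Fcrl1 on both days.

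Fcer2a and Fcrl5 also differed along the amount of Ighm. IgM-only cells were divided by their Ighm UMIs after the state values had been seen, so the values are a description. At day 0 Fcer2a was at 343 CPM (304 to 384) in the 387 cells with 3 to 5 Ighm UMIs, 265 CPM (217 to 320) in the 156 with 6 to 9, and 177 CPM (132 to 233) in the 67 with 10 or more. At day 14 the same classes were at 197, 186 and 118 CPM (80.5 to 166 in the last). Fcrl5 went the other way: at 10.5, 22.5 and 48.7 CPM (26.6 to 81.8) at day 0 and 8.83, 19.5 and 47.8 CPM (25.5 to 81.8) at day 14, from 9 to 14 UMIs in each class. Fcmr did not follow Fcer2a here, at 532, 542 and 522 CPM at day 0 and 399.8, 422 and 463 CPM at day 14. Fcgr2b was at 67.8, 75.0 and 83.5 CPM at day 0 and 75.5, 64.9 and 139.8 CPM at day 14. Fcrl5 was detected in 10 of the 67 cells with most Ighm at day 0 and in 11 of 59 at day 14. These classes were not matched for depth. IgD-positive cells were divided by depth at under 2000, 2000 to under 3000 and 3000 or more UMIs. There Fcrl5 was at 0, 2.38 and 16.8 CPM at day 0 and at 1.45, 4.65 and 21.5 CPM at day 14. Fcer2a was at 407, 389 and 319 CPM at day 0 and at 194, 236 and 173 CPM at day 14. The part of depth in the Ighm classes was not tested. IgD-positive cells were divided at other limits, 0 to 2, 3 to 5 and 6 or more Ighm UMIs. Fcer2a in these classes was at 377, 339 and 387 CPM at day 0 and at 189, 204 and 208 CPM at day 14. A class of 10 or more Ighm UMIs was not read in IgD-positive cells, so the 2 states are not compared at like limits.

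Fcer2a was also read along the number of Ighd UMIs in all cells that were neither switched nor immunoglobulin-rich. At day 0 it was at 284 CPM with 0 Ighd UMIs, 330.1 with 1, 353 with 2, 376 with 3, 440.3 with 4 and 341 with 5 or more. At day 14 the same classes were at 174, 187, 205, 206, 202 and 153 CPM. The ratio was 0.612 with 0 Ighd UMIs, 0.567, 0.580 and 0.548 with 1, 2 and 3, 0.459 with 4 and 0.449 with 5 or more. Every class was thus lower at day 14. Fcmr was at 497, 573, 659, 674, 785 and 684 CPM along the same classes at day 0 and at 389.9, 438, 435, 520.4, 570.2 and 608 CPM at day 14, lowest with 0 Ighd UMIs on both days.

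**Figure D4:**
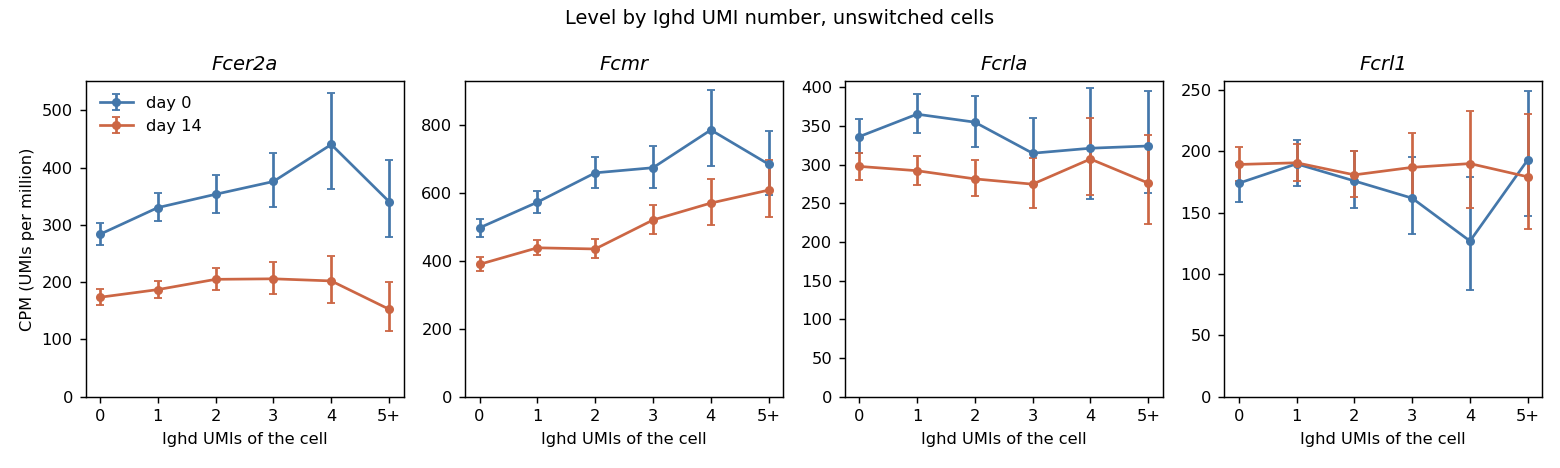
Level of Fcer2a, Fcmr, Fcrla and Fcrl1 (y axis, CPM from 0) by the number of Ighd UMIs in the cell (x axis) at day 0 and day 14, as points with exact Poisson 95% intervals over cells that were neither switched nor immunoglobulin-rich. Fcer2a lies lower at day 14 in every class, with 284 against 174 CPM at 0 Ighd UMIs and 440.3 against 202 CPM at 4, while the Fcrl1 intervals of the 2 days overlap in every class.

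Fcer2a was lower at day 14 in IgD-positive cells divided by depth, by Ighm UMIs and by detection of Cr2 or Fcmr. By depth of the cell the ratio was 0.476 under 2000 UMIs, 0.607 from 2000 to under 3000 and 0.542 from 3000 upwards. By Ighm UMIs it was 0.50 at 0 to 2, 0.602 at 3 to 5 and 0.539 at 6 or more. It was 0.536 in cells with no UMI of Cr2, the CD23 partner CD21, and 0.569 in cells with one, and 0.501 and 0.566 in cells without and with an Fcmr UMI. Among cells with no Fcer2a UMI, Fcmr had a ratio of 0.753, so its lower level was not limited to cells in which Fcer2a was detected.

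The interferon gene list was taken from earlier results of these data, so more such cells at day 14 is not an independent finding. At least 2 UMIs of the list were found in 195 of 1486 IgD-positive cells at day 14, against 15 of 976 such cells at day 0. Their Fcer2a level at day 14 was 199 CPM, and at day 0 it was 175 CPM from 9 UMIs, a ratio of 1.13 (0.578 to 2.54) on the other side of 1, with an interval that includes 1. In IgD-positive cells under that limit Fcer2a was at 371 and 201 CPM, a ratio of 0.542, as large a difference as with them. Cells with at least 2 UMIs of germinal center markers, 84 at day 0 and 40 at day 14 over all states but immunoglobulin-rich, had Fcer2a at 112 and 92.3 CPM, below IgD-positive cells on both days.

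Markers of non-B cells were near 0 in IgD-positive cells: at day 0 and day 14 the 7 T cell genes had 16 and 8 UMIs in all, the 9 myeloid genes 6 and 3, the 3 NK cell genes 1 and 0, the 4 epithelial genes 13 and 28, the 4 stromal genes 0 and 2, and the 5 mast cell genes 0 on both days. The 7 germinal center genes had 83 and 100 UMIs. The 6 counted mature B cell markers had ratios from 0.933 to 1.01, within 1.5-fold. Of 6 counted plasma cell markers, 3 were lower at day 14 in IgD-positive cells (Jchain 0.384, Sdc1 0.595 and Txndc5 0.664), against 5.40% of all genes tested. Immunoglobulin-rich cells had no Fcer2a UMI, and the part of the plasma cell markers in the Fcer2a ratio was not tested.

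Of 13 further Fc receptor genes, 8 had no UMI in IgD-positive cells. Over all cells, the high-affinity IgE receptor genes Fcer1a and Ms4a2, and Fcgr1, Fcamr, Fcrl6 and Fcrls, had 0 UMIs on both days. The common chain Fcer1g had 31 and 40 UMIs, the activating IgG receptors Fcgr3 and Fcgr4 0 and 2, and 4 and 7, and the neonatal receptor Fcgrt 57 and 59. Fcgrt was the one with enough UMIs in IgD-positive cells, at a ratio of 0.738. In sum the 13 genes had 46 and 64 UMIs in IgD-positive cells, against 4055 and 4889 for the 6 receptors.

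The genes around CD23 were mostly within 1.5-fold in IgD-positive cells. Of 20 genes for its induction, partners and shedding, 16 were counted and 1 was lower, with a median log2 ratio of -0.20. Of all 6855 genes tested, 5.40% were lower, with a median of -0.08, so 1 of 16 is near that share. The lower gene of the list was Cd40, the receptor for T cell help that induces Fcer2a in culture, at 0.502 (0.395 to 0.638). The interleukin 4 receptor chain Il4ra was at 0.899, Stat6 at 0.774, Rbpj at 0.820, and the most abundant, Il2rg, at 0.858. The sheddases Adam10 and Adam17 were at 0.871 and 0.743, and the CD23 partner Cr2 at 1.11. RNA counts do not show how much CD23 was on the surface or shed.

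Of 17 counted partners of inhibitory receptors, 1 was lower, the phosphatase Ptpn11 at 0.592, and the median log2 ratio was -0.15. That count is near the 5.40% of all genes tested that were lower, whose median was -0.08. Inpp5d, the phosphatase that Fcgr2b recruits, was at 0.994, Lyn at 1.09 and Grb2, the most abundant, at 1.07. The inhibitory receptors Pirb and Cd72 were at 0.673 and 0.721, Plcg2 at 0.724 and Ptpn6 at 0.756. Fcgr2b and its phosphatase were thus both within 1.5-fold.

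Of 12 follicular naive B cell genes, a class that CD23 marks, 1 was lower and 11 were within 1.5-fold, with a median log2 ratio of -0.29. The share of all genes tested that were lower was 5.40%, with a median of -0.08. The lower gene of the follicular list was the complement regulator Cd55 at 0.581. Next were the transcriptional repressor Bach2 at 0.692, the chemokine receptor Ccr7 at 0.711 and the quiescence factor Klf2 at 0.734. Among the follicular genes above 1 were Btla at 1.05 (0.861 to 1.28) and Cr2 at 1.11 (0.937 to 1.31). Cr2 is also in the marginal zone list. All 6 counted marginal zone genes were within 1.5-fold, with a median of 0.20; Cd9 was at 1.33, Cd1d1 and Plac8 at 1.19 and Cd36 at 0.94. The B-1 list had 1 counted gene, Bhlhe41, at 0.393. All 6 counted memory and activation genes were within 1.5-fold, with a median of -0.16. Fcer2a, at 0.547 (0.497 to 0.602), thus had a lower ratio than any counted gene of the follicular or marginal zone lists. Its interval overlaps those of Cd55 (0.517 to 0.653) and Bach2 (0.566 to 0.847), so it is not told apart from these.

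**Figure D5:**
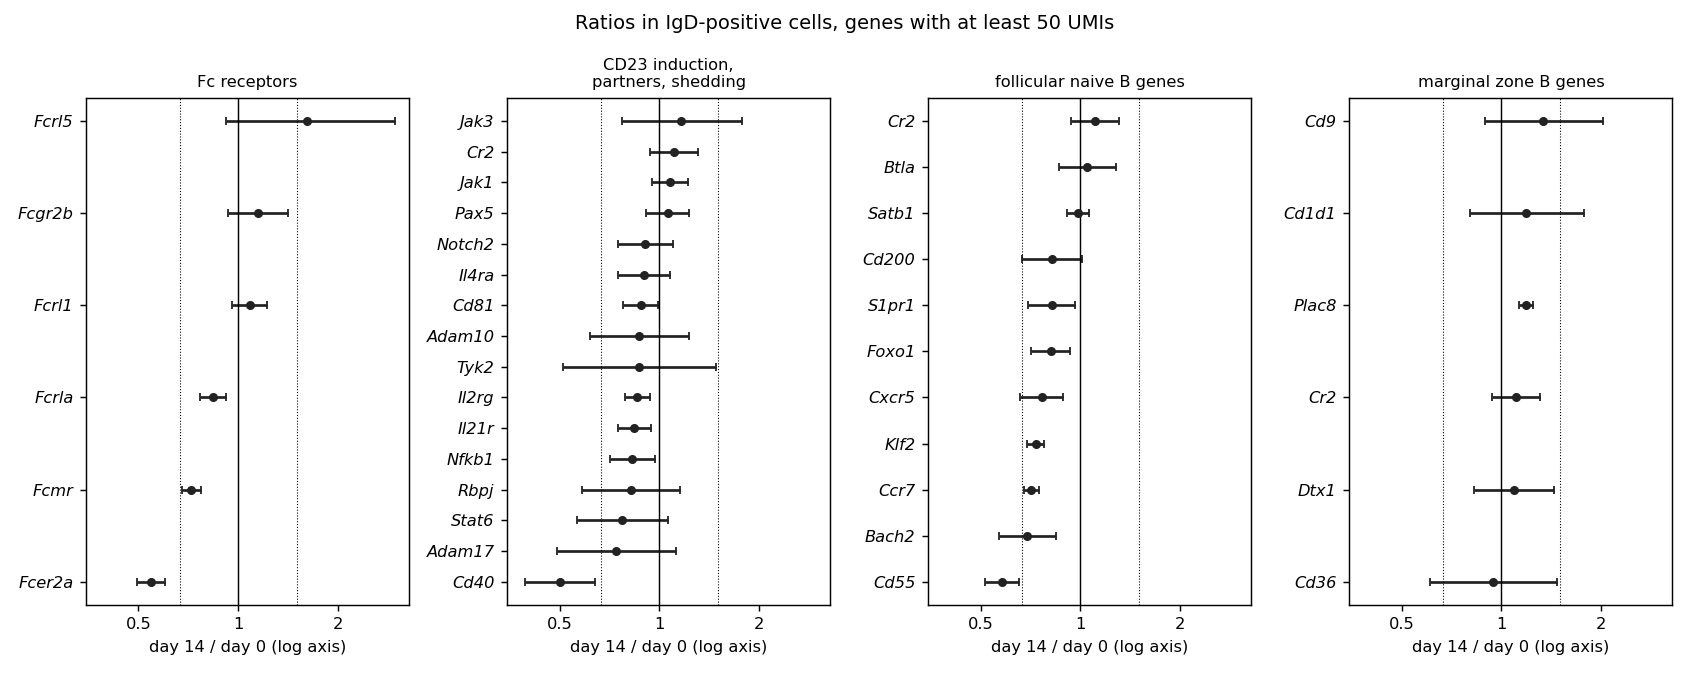
Ratio of day 14 to day 0 in IgD-positive cells (x axis, log scale) for the 6 Fc receptor genes and for counted genes (at least 50 UMIs) of 3 lists, 1 gene per row, with 1 follicular gene not drawn, with exact conditional 95% intervals; dotted lines mark 1.5-fold. Fcer2a at 0.547, Cd40 at 0.502 and Cd55 at 0.581 lie left of the lower line, and most genes of the lists lie between the lines.

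Across the 8 sums of 4 states (IgD-positive, IgM-only, IgG and IgA) and 2 days, the genes whose log level was most like that of Fcer2a by Pearson's r were Trim7, Tespa1, Snn, Arhgap45, Clk1, Brwd1, Samsn1 and BC005561, with r from 0.97 to 0.98. In all, 59 of the 4480 genes compared had r over 0.9, and the 8 points share 2 libraries and small IgG and IgA sums, so this is a description. Among the receptors r was 0.77 for Fcmr, 0.75 for Fcrla, 0.66 for Fcrl1, 0.38 for Fcgr2b and 0.13 for Fcrl5. In IgD-positive cells the 8 genes had day ratios from 0.685 (Snn) to 1.04 (Tespa1), so none was as low as Fcer2a there.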

How the data were processed

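Single-cell 3′ RNA libraries of sorted colon B cells, 1 at day 0 and 1 at day 14, were deposited by the authors as raw UMI counts per gene and barcode. Per the submitters' processing notes, Cell Ranger and Seurat 3.0 were used with mm10; the matrix header reads version 3.0.1. A second deposited table gives natural log values; its barcodes (3290 and 4692) were taken as the authors' filtered cells, which left out 86 and 88 barcodes. Every member value in it matched ln(1 + 10000 × UMIs / total UMIs). It was not used for levels.

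Levels here were UMIs per 1000000 summed UMIs of a state, without immunoglobulin and mitochondrial genes. Poisson, Clopper-Pearson and conditional intervals (95%) were computed with SciPy 1.17.1 under Python 3.11.15; TMM factors came from edgeR 4.0.16. No test was run, since each group has 1 library. Calls needed 1.5-fold and 50 UMIs. Doublets were not removed; an alternative left out cells above 2 times the median UMIs. The scripts were tested on simulated data. The members and gene lists were chosen with earlier results of these data known, and the interferon list was taken from those results. Named genes are the 6 members and the 8 genes most like Fcer2a. Of each list, up to 4 genes with the largest absolute log2 ratio, in either direction, and the most abundant one are also named. Others named were chosen after their values were seen. One gene of the follicular list is not reported here by name, though the list's counts and median include it.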

Additional observations from a re-analysis of the deposited data

Results flagged for a closer look

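Fc receptor UMIs were also found in barcodes that the deposited log table leaves out. In the T cell marker barcodes (at least 3 UMIs of Cd3d, Cd3e, Cd3g and Trac; 56 at day 0 and 45 at day 14), Fcrla had 5 UMIs at day 0 and 7 at day 14, in 4 barcodes on each day, and Fcmr had 4 UMIs at day 14. In the other 43 left-out barcodes of day 14 Fcrla had 4 UMIs. Each count lies above the 3 UMIs that a count of 0 allows. The T cell marker barcodes, which serve above as the background for shares in IgA cells, also held 12 and 28 UMIs of the B cell gene Cd79a, so these counts do not show that T cells express the genes, and the part of free RNA or doublets was not tested.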

How the results depend on the processing

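The Fcer2a ratio in IgD-positive cells was 0.547 and lay between 0.514 and 0.584 in all alternatives but one; it was 0.449 where IgD-positive meant at least 5 Ighd UMIs. The share of IgD-positive cells with an Fcer2a UMI, 53.4% at day 0, was 29.0% thinned to 1000 UMIs, 49.0% with at least 1 Ighd UMI, 57.9% with at least 3 and 62.8% with at least 5; at day 14 it was 34.2%, and 16.6% thinned. Genes at least 1.5-fold higher in IgD-positive cells numbered 140, but 350 with at least 20 UMIs, 21 with at least 200 UMIs and 214 with TMM; genes lower numbered 370, but 714 with at least 20 UMIs, 58 with at least 200, 226 with TMM and 227 with median-of-ratios scaling. Fcmr in IgD-positive cells was at 0.785 with at least 3 Ighd UMIs, 0.889 with at least 5 and 0.771 with TMM. Fcrl1 lay at 0.928 with at least 5 Ighd UMIs and 0.912 thinned, on the other side of 1 from its main value. Fcrla in unresolved cells was at 0.952 thinned. The cause of these shifts was not tested. No paired analysis was possible because each group is 1 library, and for the same reason no replicate could be left out.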
